A study of Homo sapiens with 9 samples.

Results

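The genes described here are those for subunits of voltage-gated potassium, sodium and calcium channels and of the potassium channels related to them. They were taken as every gene whose current symbol begins with KCN, with SCN and a digit, or with CACN, on a probe set that the array annotation assigns to 1 gene. The rule found 124 genes among the 18417 measured, on 130 probe sets, of which 87 fell in the potassium class, 12 in the sodium class and 25 in the calcium class. Of these, 122 are named as channel subunits. The other 2, KCNJ5-AS1 and KCNQ1DN, carry a matching symbol but are long non-coding RNAs, and neither was called in any comparison. Under this rule the symbol alone decides whether a gene is included. The rule itself was chosen with earlier results of these data known.

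All 9 arrays came from H9-TCF7L1 cells, a derivative of the established human embryonic stem cell line H9 with a TCF7L1 transgene that doxycycline switches on. The 3 groups of 3 arrays were untreated cells in the stem cell maintenance medium mTeSR1, cells kept for 48 h in PS medium, a differentiation medium whose abbreviation the labels do not spell out, and cells given 48 h of PS medium together with 48 h of doxycycline at 1 ug/ml. TCF7L1, a transcription factor that binds DNA and can repress Wnt target genes, was overexpressed to look for its targets. The transgene is present in all groups, including the untreated one, and every doxycycline array also carries it, so an effect of doxycycline itself and an effect of the induced factor cannot be told apart. The labels do not say whether replicates were separate cultures, and p-values therefore reflect the spread of these 9 samples alone, some of which may be technical.

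Ion channels are built from a pore-forming subunit, which sets the ion and the gate, and from auxiliary subunits, which change the amount of channel at the membrane and the speed of opening and closing. Potassium channels mostly hold or restore the negative resting potential, sodium channels carry the fast upstroke of the action potential, and calcium channels turn a voltage change into a calcium signal. Pluripotent stem cells are not excitable in the way of neurons or muscle, but they do carry potassium currents and express channel genes that later mark excitable tissues.

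TCF/LEF factors bind DNA at short sites whose core is often written CTTTGAT or CTTTGTT, so these letters were looked for on both strands of the RefSeq promoter windows of the channel genes (assembly GRCh38.p14, 300 bases, from 250 before to 50 after an annotated start). A window was listed for 94 of the 124 genes, with 142 windows in all, and 30 genes had none in the table used. CTTTGAT was in 6 of the 142 windows (4.23%), against 2.62% of 35116 windows of all genes, and CTTTGTT in 7 (4.93%), against 5.2%. The CTTTGAT windows include overlapping ones of KCNAB1 that hold the same site. Counted by gene, CTTTGAT was in 5 of 94, against 867 of 27305, and CTTTGTT in 7 of 94, against 1733 of 27305. A match describes letters in the window and is not a measured binding site. The windows below are those of genes whose values are given later and that hold either motif, each 5′ to 3′ on the gene's own strand, with the motif in capitals, or its reverse complement in KCNH2 (ATCAAAG). They lie at chr7:150960007-150960306 on the minus strand for KCNH2, chr7:120272925-120273224 on the plus strand for KCND2, chr11:118145384-118145683 on the minus strand for SCN4B, chr10:18340459-18340758 on the plus strand for CACNB2, and chr12:48818246-48818545 on the plus strand for CACNB3.
KCNH2: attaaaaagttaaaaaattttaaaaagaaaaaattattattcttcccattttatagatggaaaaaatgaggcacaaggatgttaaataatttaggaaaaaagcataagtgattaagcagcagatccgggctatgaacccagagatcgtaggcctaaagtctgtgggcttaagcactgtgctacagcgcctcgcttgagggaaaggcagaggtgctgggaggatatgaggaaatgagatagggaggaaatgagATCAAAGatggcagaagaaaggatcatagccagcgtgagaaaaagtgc
KCND2: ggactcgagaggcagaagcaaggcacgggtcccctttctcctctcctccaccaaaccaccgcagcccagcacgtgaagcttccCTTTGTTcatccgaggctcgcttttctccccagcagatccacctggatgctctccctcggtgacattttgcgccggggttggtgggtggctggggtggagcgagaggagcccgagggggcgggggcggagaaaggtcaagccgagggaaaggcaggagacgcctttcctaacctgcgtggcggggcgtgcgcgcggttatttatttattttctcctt
SCN4B: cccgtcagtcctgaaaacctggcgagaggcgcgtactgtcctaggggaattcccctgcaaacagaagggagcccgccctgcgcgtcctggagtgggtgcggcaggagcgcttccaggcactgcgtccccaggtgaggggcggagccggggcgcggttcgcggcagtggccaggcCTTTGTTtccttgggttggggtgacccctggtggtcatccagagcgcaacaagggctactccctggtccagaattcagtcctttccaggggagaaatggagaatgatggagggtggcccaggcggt
CACNB2: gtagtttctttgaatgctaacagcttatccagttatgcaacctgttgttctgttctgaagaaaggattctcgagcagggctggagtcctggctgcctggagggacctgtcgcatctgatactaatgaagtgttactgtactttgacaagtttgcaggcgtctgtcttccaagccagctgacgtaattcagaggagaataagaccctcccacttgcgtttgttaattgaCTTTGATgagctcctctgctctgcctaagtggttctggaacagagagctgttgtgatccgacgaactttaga
CACNB3: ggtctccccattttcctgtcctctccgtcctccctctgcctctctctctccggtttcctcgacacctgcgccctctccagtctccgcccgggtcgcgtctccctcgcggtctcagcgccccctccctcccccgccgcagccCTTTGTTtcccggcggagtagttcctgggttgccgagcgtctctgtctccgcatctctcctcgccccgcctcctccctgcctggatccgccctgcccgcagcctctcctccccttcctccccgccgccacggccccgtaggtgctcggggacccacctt
Counted from the start, the first base of the motif is at 3 in KCNH2, -167 in KCND2, -76 in SCN4B, -22 in CACNB2 and -109 in CACNB3. The 5 genes did not share a direction with doxycycline. KCNH2, CACNB2 and CACNB3 were called higher than in PS medium alone, and KCND2 and SCN4B were not called in that comparison. Of all genes, 8.91% were called higher there. Genes described later were mostly picked for being called, so calls among the printed windows follow from that choice. KCNAB1, KCNJ1, KCNJ16, KCNK16 and KCNMB3 also hold a motif and were called in no comparison. KCNK2 holds CTTTGAT and was called only in PS medium, where it fell. A link between motif and call was not tested. CACNB2 has a further window that holds CTTTGTT, which is not printed.

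TCF7L1 itself read from 3572 to 3878 in untreated cells, from 1275 to 1611 in PS medium, and 13100, 12433 and 2699 in doxycycline replicates 1, 2 and 3. Replicate 3 of the doxycycline group thus stood below both others and below the untreated arrays, and the differences of single genes that rest on that group are given with and without it. Across all genes, arrays of a group correlated at 0.9889 to 0.9968. Cell state moved with the medium. All 6 primitive streak markers were higher in PS medium and lower again with doxycycline (5 of 6 without doxycycline replicate 3), with summed intensities of 1377 to 1498 in untreated cells, 69010 to 77840 in PS medium and 12920 to 20050 with doxycycline. Of 6 measured pluripotency markers, 5 were lower in PS medium, and their sums were 22850 to 24280, 16040 to 16970 and 20220 to 21100 in the same order. Amnion and trophectoderm markers summed to 1364 to 1492, 9805 to 12540 and 23030 to 24990, with 5 of 6 higher with doxycycline than in PS medium. In PS medium the list was split, with TFAP2A and GATA3 higher, KRT7 and IGFBP3 lower (3.37-fold and 1.61-fold) and a median difference of -0.02. Markers of the cells best known for these channels differed by list. Of 7 neuron markers 3 were lower and 0 higher in PS medium (also 0 higher at an unadjusted p under 0.05), with sums of 3762 to 4090, 2416 to 3060 and 2339 to 2633. Of 5 cardiomyocyte markers 2 were higher and 0 lower in PS medium (also 0 lower at an unadjusted p under 0.05), NKX2-5 and MYL7, the latter by 2.6-fold, with sums of 1252 to 1320, 1491 to 1577 and 1388 to 1676. Of 5 skeletal muscle markers only ACTA1, an actin, was higher with doxycycline than in PS medium. MYOD1, MYOG, MYH3 and CHRNA1 differed by -0.24 to -0.05 there and were not called. The sums were 2342 to 3822, 2035 to 3008 and 6196 to 11410, highest with doxycycline without overlap. ACTA1 made up most of these sums, at 5774, 10999 and 7837 with doxycycline. No marker was at 0, and the part of these markers in the results below was not tested. The arrays measure bulk RNA, so fewer cells of a type and less RNA per cell cannot be told apart.

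In each comparison more channel genes were called lower than higher. The shares called are set beside those of all genes, and their difference was not tested. Differences are on the log2(intensity + 16) scale, which understates changes of dim genes, and a gene was called at a limma adjusted p under 0.05 over all 18417 genes. In PS medium 17 of the 124 channel genes rose and 29 fell against untreated cells, 37.1% in all. Over all genes 14.2% were called higher and 15.7% lower, 29.8% in either direction. With doxycycline, 14 rose and 17 fell against PS medium alone, 25% in all, where 8.91% of all genes were called higher, 8.44% lower and 17.4% in either direction. The count of 14 was 8 without PS replicate 1, 9 without PS replicate 2 and 7 without doxycycline replicate 1. Against untreated cells, PS medium with doxycycline gave 16 rises and 32 falls, 38.7%, where 15.3% of all genes were called higher, 14.9% lower and 30.3% in either direction. The median difference of the 124 genes was -0.05, -0.05 and -0.07 in the 3 comparisons, beside -0.01, 0.00 and 0.00 for all genes. These counts come from a fit that does not use the replicate number. With that number as a block, which pairs the arrays of all 3 groups, the doxycycline counts changed. Then 14 rose and 22 fell against PS medium, and 16 rose and 34 fell against untreated cells. CACNG7 and KCNMB4 were among the added falls against PS medium (-0.27 and -0.19, limma adjusted p = 0.0148 and 0.0132). Uncalled were 78, 93 and 76 of the 124, and 61 genes were called in no comparison. The comparisons share arrays, PS medium serving in the first pair and untreated cells in the first and the last, so values of a gene in them are set side by side and are not separate evidence.

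Without doxycycline replicate 3, 24 channel genes were called against PS medium in place of 31, with 21 in common, and 45 against untreated cells in place of 48, with 45 in common. Among all called channel genes, the 3 and 3 deposited arrays did not overlap for 45 of the 46 in PS medium, 28 of the 31 with doxycycline against PS medium, and 47 of the 48 against untreated cells. The same arrays gave the calls, so this separation is no further support for them. The share over all called genes was not computed. Brightness limits the dimmer genes. Of the 124, 50 were below the 25th percentile of all genes in mean log2 intensity, among them 10 of 13 inward rectifiers and 7 of 9 sodium pore genes. Without the genes below that percentile, 18 in place of 29 channel genes fell in PS medium and 12 in place of 17 rose.

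By subunit class, potassium genes gave 10 rises and 20 falls of 87 in PS medium, 9 and 13 with doxycycline against PS medium, and 9 and 22 against untreated cells. These were 34.5%, 25.3% and 35.6% called, beside 29.8%, 17.4% and 30.3% of all genes. Sodium genes gave 2 rises and 4 falls of 12, then 0 and 0 (also 0 and 0 at an unadjusted p under 0.05), then 1 and 4, which is 50%, 0% and 41.7%. Calcium genes gave 5 and 5 of 25, then 5 and 4, then 6 and 6, which is 40%, 36% and 48%. The potassium share in PS medium and against untreated cells thus lay near that of all genes, and the sodium and calcium shares rest on few genes. Within the calcium class the pore and auxiliary genes differed in their counts. Of 10 pore genes 1 rose and 3 fell in PS medium, and 0 rose and 3 fell with doxycycline against PS medium, while of 15 auxiliary genes 4 rose and 2 fell, and 5 rose and 1 fell. The shares called were 40% and 30% of the pore genes and 40% and 40% of the auxiliary genes, beside 29.8% and 17.4% of all genes. That difference in counts was not tested. The auxiliary class was set by symbol and includes CACNG2, CACNG4, CACNG5 and CACNG7, described below as partners of AMPA-type glutamate receptors. Among its rises, those of CACNB3 and CACNG4 in PS medium were lost without some single arrays. So were those of CACNB3 and CACNG6 with doxycycline against PS medium. Changes of at least 2-fold were fewer. In PS medium there were 4 such rises and 7 falls (3.02% and 2.62% of all genes), with doxycycline against PS medium 2 and 6 (1.78% and 1.55%), and against untreated cells 3 and 9 (2.74% and 2.47%).

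**Figure D1:**
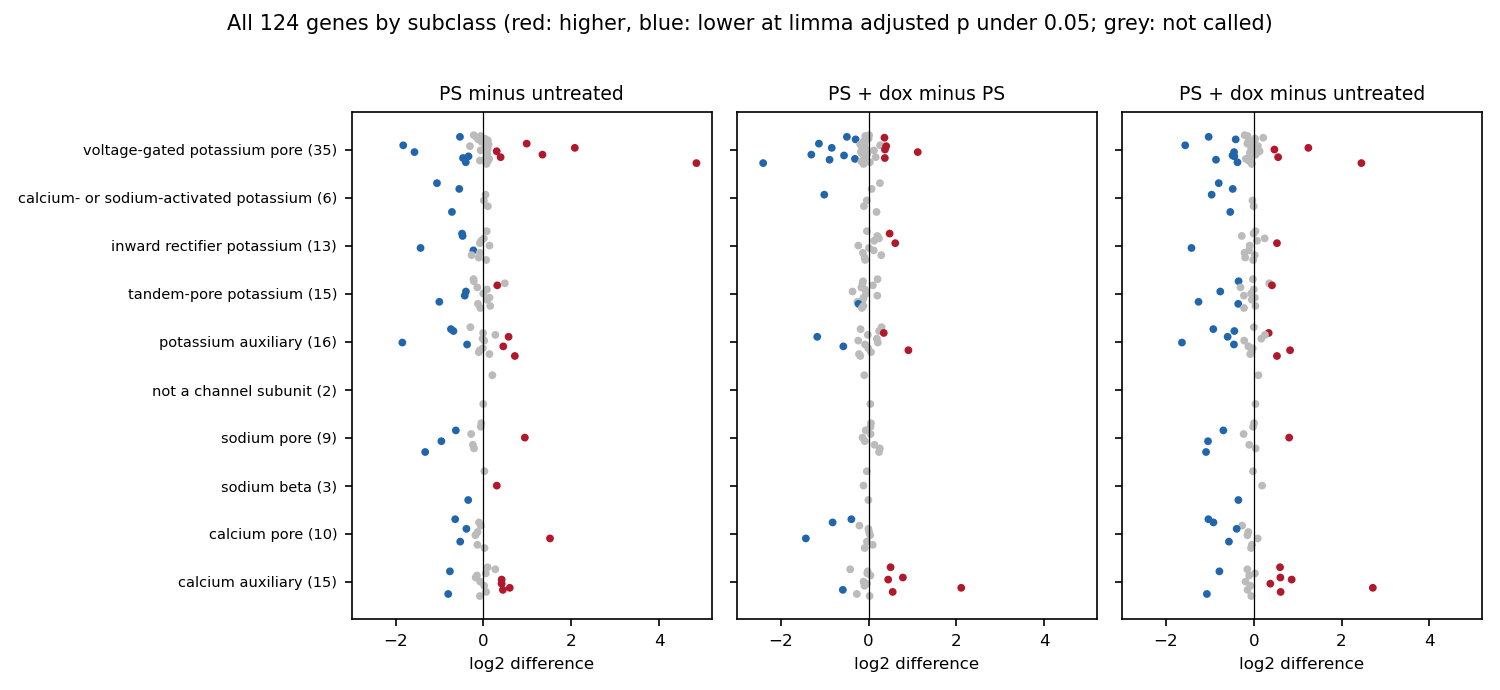
Log2 difference of each of the 124 channel genes (horizontal axis) by subunit class (rows, number of genes in brackets) in the 3 comparisons, where each point is 1 gene and colour marks the limma call. Most genes lie near 0 in all classes, KCNV1 stands farthest right in PS medium at 4.85, and no sodium gene is coloured in the middle panel.

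Among the voltage-gated potassium pore genes, 6 of 35 rose and 6 fell in PS medium (34.3%, beside 29.8% of all genes). With doxycycline against PS medium 5 rose and 9 fell (40%, beside 17.4%). Against untreated cells 4 rose and 8 fell with doxycycline (34.3%, beside 30.3%). The differences from all genes were not tested. KCNV1 rose most in PS medium. KCNV1 encodes a modulatory subunit that forms no channel alone and alters the channels it joins. Its intensity was 122, 104 and 122 in untreated cells, 3669, 3229.6 and 4449 under PS medium and 579, 580.3 and 1007 under PS medium with doxycycline. All PS arrays lay far above all others, and the doxycycline arrays lay between the other groups with no overlap. The difference was 4.85 ± 0.20 (SE, n = 3 per group) in PS medium, a 28.9-fold rise (limma adjusted p = 4.26e-08). With doxycycline KCNV1 fell 5.28-fold from the PS level (-2.40 ± 0.20, adjusted p = 1.95e-05, and -2.67 without doxycycline replicate 3), and remained 5.47-fold above untreated cells (2.45 ± 0.20, adjusted p = 6.42e-06, 2.19 without doxycycline replicate 3). Doxycycline replicate 3, the array with the lowest TCF7L1 of its group, had the highest KCNV1 of its group. Other potassium and calcium genes described below were also called higher in PS medium and lower with doxycycline, and they differed on that array. KCNH5 was highest of its group there and KCNG1 lay between, while KCNC4, KCNE3, CACNA1G and CACNG5 were lowest.

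KCNG1, another subunit that is silent alone and joins delayed rectifier channels, read 539, 548 and 543 in untreated cells, 2059, 2259 and 3005 under PS medium and 1238, 1477 and 1276 under PS medium with doxycycline. The 3 groups did not overlap. It rose 4.24-fold in PS medium (2.08 ± 0.12, adjusted p = 5.33e-07), and with doxycycline it was lower than in PS medium by 1.79-fold (-0.84 ± 0.12, adjusted p = 0.000688, -0.82 without doxycycline replicate 3) and above untreated cells by 2.37-fold (1.24 ± 0.12, 1.27 without doxycycline replicate 3). A further probe set of KCNG1 gave 1.92, -0.85 and 1.07 in the same 3 comparisons. KCNC4, the pore of a rapidly inactivating channel, read 310.2, 282 and 295 in untreated cells, 594, 611 and 594 under PS medium and 280.3, 261 and 250.5 under PS medium with doxycycline. The PS arrays lay far above all others, and the doxycycline arrays lay just below the untreated ones. The rise was 0.99 ± 0.07 (adjusted p = 3.54e-06), the fall with doxycycline -1.13 ± 0.07 (adjusted p = 4.52e-06, -1.09 without doxycycline replicate 3), and the difference from untreated cells -0.14 ± 0.07 (adjusted p = 0.172, -0.10 without doxycycline replicate 3).

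KCNH5, an ether-a-go-go type channel of the nervous system, was dim and read 44.1, 45.8 and 37.4 in untreated cells, 89.7, 94.5 and 251 under PS medium and 37.2, 38.6 and 53.6 under PS medium with doxycycline. Every PS array exceeded the others, but PS replicate 3 stood far above the other PS arrays. The rise in PS medium was 1.35 ± 0.29 (adjusted p = 0.00505) and 0.91 without PS replicate 3 (adjusted p = 0.00059). The fall with doxycycline was -1.30 ± 0.29 (adjusted p = 0.00996, -1.42 without doxycycline replicate 3) and -0.87 without PS replicate 3 (adjusted p = 0.00143). KCNH8, of the related ELK branch, read 148, 151 and 144 in untreated cells, 179, 183 and 220.4 under PS medium and 241, 193 and 223 under PS medium with doxycycline. Its PS and doxycycline arrays lay above the untreated ones, with differences of 0.39 ± 0.10 (adjusted p = 0.0112) and 0.55 ± 0.10 (adjusted p = 0.00152, 0.55 without doxycycline replicate 3).

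The largest fall among these pores was in KCND2, which carries the transient A-type current of neurons and read 757, 759 and 742 in untreated cells, 244, 272 and 121 under PS medium and 254, 277 and 217 under PS medium with doxycycline. Untreated arrays lay within a narrow span far above the others, and PS replicate 3 was the lowest of all 9. KCND2 fell 3.55-fold in PS medium (-1.83 ± 0.22, adjusted p = 0.00012) and was 2.95-fold lower with doxycycline than in untreated cells (-1.56 ± 0.22, adjusted p = 0.000384, -1.47 without doxycycline replicate 3). Between doxycycline and PS medium alone it differed by 0.26 ± 0.22 (adjusted p = 0.507, 0.36 without doxycycline replicate 3), with overlapping arrays. KCND3, a related A-type pore that was dimmer, read 50.2, 67.8 and 68.4 in untreated cells, 42.6, 47.5 and 46.1 under PS medium and 61.2, 71.8 and 61.9 under PS medium with doxycycline. It was called higher with doxycycline than in PS medium (0.40 ± 0.12, adjusted p = 0.0484, 0.45 without doxycycline replicate 3 with adjusted p = 0.0606 and no longer called), a call lost without untreated replicates 2 or 3, or PS replicates 1, 2 or 3, or doxycycline replicates 1, 2 or 3 (log2 0.31 to 0.45, adjusted p 0.0503 to 0.16).

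KCNH2, the pore of the rapid delayed rectifier that repolarizes heart muscle, read 770.3, 767 and 811 in untreated cells, 229, 250.3 and 293 under PS medium and 608, 686 and 477 under PS medium with doxycycline. It was high in untreated cells, low in PS medium and intermediate with doxycycline, with no overlap between groups, and doxycycline replicate 3 was the lowest of its group. The fall in PS medium was 2.97-fold (-1.57 ± 0.12, adjusted p = 5.3e-06). With doxycycline it was 2.17-fold above PS medium (1.12 ± 0.12, adjusted p = 0.000127, 1.25 without doxycycline replicate 3) and differed from untreated cells by -0.45 ± 0.12 (adjusted p = 0.0187, -0.32 without doxycycline replicate 3 with adjusted p = 0.0549 and no longer called). Its promoter window is the one printed above with the reverse complement of CTTTGAT just after the start.

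KCNA3, a pore best known from lymphocytes, read 112, 102 and 103 in untreated cells, 71.5, 66.8 and 59.7 under PS medium and 46.7, 51.2 and 30.3 under PS medium with doxycycline. The groups stepped down without overlap, and doxycycline replicate 3 was the lowest array. Its difference with doxycycline from untreated cells was -1.03 ± 0.14 (adjusted p = 0.000267, -0.85 without doxycycline replicate 3). KCNQ5, which contributes to the M-current that restrains firing, read 170.2, 179 and 192 in untreated cells, 136, 200.2 and 215 under PS medium and 84.1, 101 and 81.8 under PS medium with doxycycline. The PS arrays overlapped the untreated ones, and all doxycycline arrays lay below both. The fall with doxycycline against PS medium was -0.89 ± 0.16 (adjusted p = 0.00341, -0.82 without doxycycline replicate 3). KCNG3, a silent modulatory subunit like KCNG1, read 565, 507 and 522 in untreated cells, 588, 544 and 603 under PS medium and 753, 672 and 864 under PS medium with doxycycline. Its doxycycline arrays lay above all others, by 0.37 ± 0.10 against PS medium (adjusted p = 0.0247, 0.27 without doxycycline replicate 3 with adjusted p = 0.0731 and no longer called), a call lost without PS replicates 1 or 2, or doxycycline replicates 1 or 3 (log2 0.27 to 0.39, adjusted p 0.0528 to 0.0784), and when the 2 groups were fitted alone. Relative to untreated cells KCNG3 was higher by 0.47 ± 0.10 (adjusted p = 0.00448, 0.37 without doxycycline replicate 3).

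**Figure D2:**
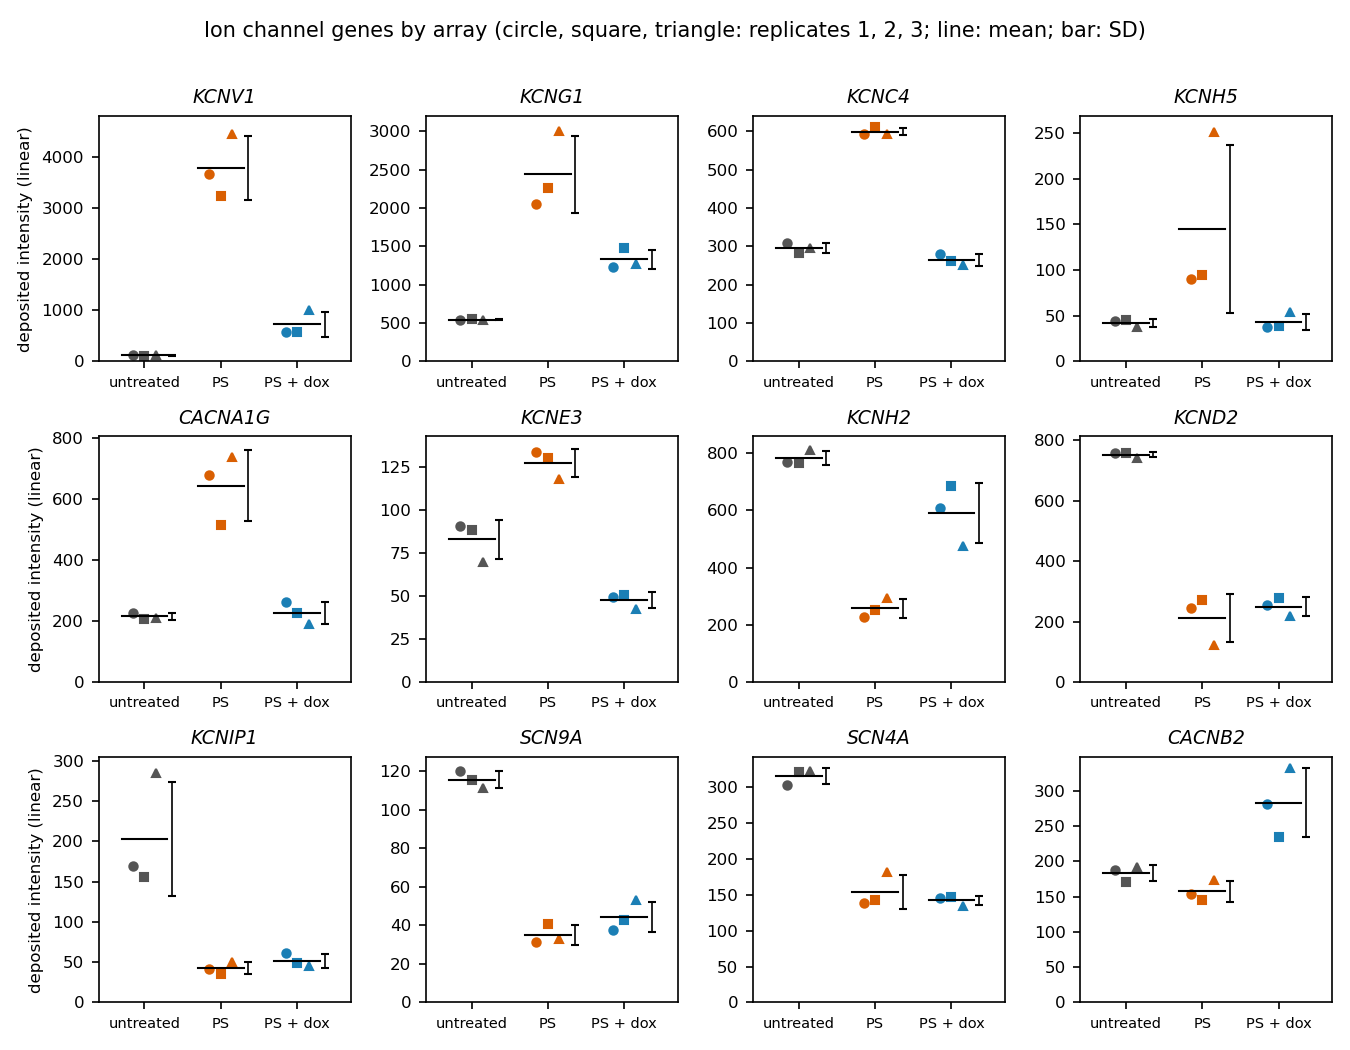
Deposited intensity (vertical axes, linear, each from 0) of 12 channel genes on each of the 9 arrays, with the group mean as a line and its SD as a bar. KCNV1, KCNG1, KCNC4, KCNH5 and CACNA1G peak in PS medium, KCNH2, KCND2, KCNIP1, SCN9A and SCN4A are highest in untreated cells, and CACNB2 is highest with doxycycline.

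Calcium- and sodium-activated potassium genes gave 3 falls of 6 in PS medium (50%, beside 29.8% of all genes called) and 0 rises (also 0 rises at an unadjusted p under 0.05). KCNMA1, the pore of the large-conductance BK channel, read 518, 573 and 538 in untreated cells, 240.1, 298 and 232 under PS medium and 319, 373 and 252 under PS medium with doxycycline. Untreated arrays lay above all others, while the PS and doxycycline arrays overlapped. The fall in PS medium was 2.08-fold (-1.06 ± 0.14, adjusted p = 0.000217), and with doxycycline the gene differed from PS medium by 0.26 ± 0.14 (adjusted p = 0.267, 0.40 without doxycycline replicate 3). KCNN3, a small-conductance channel gated by calcium, read 229, 249 and 225 in untreated cells, 176, 219 and 354 under PS medium and 100.05, 108 and 119.6 under PS medium with doxycycline. PS replicate 3 was the highest array, and the doxycycline arrays were the lowest 3. It fell 2.01-fold with doxycycline against PS medium (-1.01 ± 0.19, adjusted p = 0.00398, -1.05 without doxycycline replicate 3) and differed from untreated cells by -0.96 ± 0.19 (adjusted p = 0.00319, -1.001 without doxycycline replicate 3).

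Inward rectifiers, which pass current best near the resting potential, gave 4 falls and 0 rises of 13 in PS medium (0 rises also at an unadjusted p under 0.05), and 2 rises and 0 falls with doxycycline against PS medium (0 falls also unadjusted). The shares called were 30.8% and 15.4%, beside 29.8% and 17.4% of all genes. KCNJ2, which stabilizes the resting potential in muscle and heart, read 182, 128 and 238 in untreated cells, 68.5, 35.9 and 64.8 under PS medium and 52.3, 47.3 and 66.8 under PS medium with doxycycline. Untreated arrays spread widely but all lay above the rest. It fell 2.7-fold in PS medium (-1.43 ± 0.21, adjusted p = 0.000466) and was 2.67-fold lower with doxycycline than in untreated cells (-1.42 ± 0.21, adjusted p = 0.000509, -1.52 without doxycycline replicate 3). KCNJ10, the main potassium-buffering channel of glia, read 173, 187 and 167 in untreated cells, 133, 133 and 90.4 under PS medium and 202, 167 and 144 under PS medium with doxycycline. It was called higher with doxycycline than in PS medium (0.48 ± 0.15, adjusted p = 0.0477, 0.60 without doxycycline replicate 3), a call lost without untreated replicates 1, 2 or 3, or PS replicates 1 or 3, or doxycycline replicates 1 or 2 (log2 0.32 to 0.54, adjusted p 0.0618 to 0.173), and with median centring and when the 2 groups were fitted alone. KCNJ15, a related and dim gene, read 43.2, 43.9 and 50.2 in untreated cells, 47.1, 38.04 and 38.5 under PS medium and 78.4, 90.7 and 48.1 under PS medium with doxycycline, and doxycycline replicate 3 lay close to the untreated and PS arrays. It was called higher with doxycycline than in PS medium (0.61 ± 0.17, adjusted p = 0.0332, 0.84 without doxycycline replicate 3), a call lost without untreated replicates 1 or 2, or PS replicates 1, 2 or 3, or doxycycline replicates 1 or 2 (log2 0.42 to 0.66, adjusted p 0.0509 to 0.111), and when the 2 groups were fitted alone. Against untreated cells it was higher by 0.53 ± 0.17 (adjusted p = 0.0397, 0.76 without doxycycline replicate 3), a call lost without untreated replicates 1, 2 or 3, or PS replicate 1, or doxycycline replicates 1 or 2 (log2 0.34 to 0.57, adjusted p 0.0506 to 0.131), and when the 2 groups were fitted alone.

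Tandem-pore genes (KCNK), which carry the background leak of potassium, gave 1 rise and 3 falls of 15 in PS medium. With doxycycline against PS medium they gave 0 rises and 1 fall (0 rises also at an unadjusted p under 0.05). The shares called were 26.7% and 6.67%, beside 29.8% and 17.4% of all genes. KCNK5, which closes on acidification, read 618, 695 and 519 in untreated cells, 278, 339 and 279 under PS medium and 226, 244 and 271 under PS medium with doxycycline. The untreated arrays lay well above the rest, and the doxycycline arrays lay below those of PS medium without overlap. It fell 2.005-fold in PS medium (-1.004 ± 0.12, adjusted p = 0.000131) and differed with doxycycline from untreated cells by -1.26 ± 0.12 (adjusted p = 2.81e-05, -1.32 without doxycycline replicate 3). Its further difference from PS medium was not called (-0.25 ± 0.12, adjusted p = 0.213, -0.32 without doxycycline replicate 3).

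Potassium auxiliary genes gave 3 rises and 4 falls of 16 in PS medium, 43.8% called, beside 29.8% of all genes. KCNIP1, a calcium-binding partner that assembles with the A-type pores such as KCND2, read 169, 156 and 285 in untreated cells, 41.5, 35.2 and 50.5 under PS medium and 60.8, 48.7 and 44.6 under PS medium with doxycycline. All untreated arrays lay above the rest, with replicate 3 the highest. KCNIP1 fell 3.6-fold in PS medium (-1.85 ± 0.19, adjusted p = 3.88e-05) and was 3.11-fold lower with doxycycline than in untreated cells (-1.64 ± 0.19, -1.55 without doxycycline replicate 3), so that both this gene and KCND2 were lower in both PS groups. KCNE3, a single-span subunit that holds KCNQ1 channels open, read 90.4, 88.5 and 69.6 in untreated cells, 133, 129.9 and 118 under PS medium and 49.6, 50.7 and 42.3 under PS medium with doxycycline. Groups did not overlap, with PS medium highest and doxycycline lowest. Its rise in PS medium was 0.57 ± 0.11 (adjusted p = 0.00307), its fall with doxycycline 2.25-fold (-1.17 ± 0.11, adjusted p = 5.48e-05, -1.09 without doxycycline replicate 3).

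BK channels also take beta subunits. KCNMB4, the neuronal one, read 1451, 1502 and 1738 in untreated cells, 2462, 2594 and 2841 under PS medium and 2137, 2149 and 2522 under PS medium with doxycycline. It was higher in both PS groups, by 0.72 ± 0.09 in PS medium (adjusted p = 0.000188) and 0.53 ± 0.09 with doxycycline against untreated cells (0.45 without doxycycline replicate 3), while the pore gene KCNMA1 was lower in both. KCNMB1, the smooth muscle one, read 139.6, 183 and 159.9 in untreated cells, 138, 162 and 138 under PS medium and 233, 335 and 314 under PS medium with doxycycline. The doxycycline arrays lay above all others, by 0.91 ± 0.15 against PS medium (adjusted p = 0.00189, 0.85 without doxycycline replicate 3). KCNMB1 and KCNIP1 are adjacent protein-coding genes in the gene listing used, and they moved differently, with KCNIP1 not called between doxycycline and PS medium (0.21 ± 0.19, adjusted p = 0.546, 0.30 without doxycycline replicate 3).

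Sodium channel genes were called in PS medium against untreated cells, and none was called between doxycycline and PS medium. SCN9A, the pore of a peripheral sensory neuron channel, read 120.2, 115 and 111 in untreated cells, 31.4, 40.7 and 32.97 under PS medium and 37.7, 42.6 and 53.04 under PS medium with doxycycline. All untreated arrays lay above all others. It fell 2.51-fold in PS medium (-1.33 ± 0.11, adjusted p = 8.46e-06) and was 2.13-fold lower with doxycycline than in untreated cells (-1.09 ± 0.11, adjusted p = 3.88e-05, -1.17 without doxycycline replicate 3). SCN4A, the skeletal muscle pore, read 303, 322 and 322 in untreated cells, 138, 143 and 182 under PS medium and 145, 146 and 135 under PS medium with doxycycline. It too was highest in untreated cells without overlap, and its falls were -0.96 ± 0.11 (adjusted p = 6.82e-05) and -1.04 ± 0.11 (adjusted p = 4.05e-05, -0.996 without doxycycline replicate 3). SCN1A, a pore of inhibitory neurons, was near the bottom of the scale at 50.1, 45.5 and 39.2 in untreated cells, 22.9, 20.4 and 24.2 under PS medium and 22.00, 17.9 and 22.7 under PS medium with doxycycline, with differences from untreated cells of -0.63 ± 0.09 and -0.69 ± 0.09 (-0.72 without doxycycline replicate 3).

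SCN3A, the pore best known from the embryonic brain, moved the other way and read 13.96, 23.9 and 23.9 in untreated cells, 62.4, 41.2 and 56.02 under PS medium and 49.3, 33.7 and 58.8 under PS medium with doxycycline. Its untreated arrays lay below all others. The rise was 0.94 ± 0.17 in PS medium (adjusted p = 0.00141) and 0.81 ± 0.17 with doxycycline against untreated cells (adjusted p = 0.00373, 0.69 without doxycycline replicate 3). With a log offset of 64 in place of 16 these were 0.48 and 0.40, still called, and the SCN1A and SCN9A falls in PS medium were -0.32 and -0.83. In the gene listing used, SCN1A and SCN9A, which both fell, are adjacent protein-coding genes, and SCN3A is adjacent to SCN2A, which was called in no comparison. Among the beta subunits, SCN4B read 136, 143 and 157 in untreated cells, 108, 101 and 114 under PS medium and 103, 108 and 108 under PS medium with doxycycline, and fell in PS medium (-0.35 ± 0.09, adjusted p = 0.0114). SCN3B read 138, 158 and 162 in untreated cells, 189, 197 and 175 under PS medium and 159, 159.8 and 197 under PS medium with doxycycline, and its rise in PS medium (0.31 ± 0.10, adjusted p = 0.0461) was lost without untreated replicates 1, 2 or 3, or PS replicates 1 or 2, or doxycycline replicate 2 (log2 0.23 to 0.35, adjusted p 0.0557 to 0.179), and on values as deposited and with median centring. Between doxycycline and PS medium the 12 sodium genes differed by -0.14 to 0.26, with 95% intervals from -0.50 to 0.58 and a lowest adjusted p of 0.195, and these intervals still hold changes of that size. Without doxycycline replicate 3, 1 sodium gene was called higher in that comparison. With all arrays SCN8A had the largest difference of the 12 (0.26 ± 0.15, adjusted p = 0.293). It read 829, 731 and 688 in untreated cells, 722, 596 and 652 under PS medium and 916, 889 and 611 under PS medium with doxycycline. Doxycycline replicates 1 and 2 lay above every PS array, and replicate 3 lay among them. The same held on its other probe set (0.37 ± 0.13, adjusted p = 0.0697).

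Calcium pore genes were led by CACNA1G, a low-threshold T-type channel, which read 227, 207 and 211 in untreated cells, 681, 515 and 739 under PS medium and 263, 228 and 191 under PS medium with doxycycline. The PS arrays lay above all others, and the doxycycline arrays overlapped the untreated ones. It rose 2.86-fold in PS medium (1.52 ± 0.14, adjusted p = 1.43e-05) and fell 2.69-fold with doxycycline (-1.43 ± 0.14, adjusted p = 5.18e-05, -1.31 without doxycycline replicate 3). CACNA1H, the other T-type pore named here, read 510.1, 549.9 and 521 in untreated cells, 343, 374 and 377 under PS medium and 384, 367 and 319 under PS medium with doxycycline. It fell in PS medium (-0.53 ± 0.08, adjusted p = 0.000803) and differed by -0.04 ± 0.08 between doxycycline and PS medium (adjusted p = 0.833, 0.04 without doxycycline replicate 3). CACNA1G and CACNA1H thus had opposite calls in PS medium.

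CACNA1B, the N-type pore, read 373, 389.8 and 332 in untreated cells, 305, 339.6 and 378 under PS medium and 197, 178 and 177 under PS medium with doxycycline. Its doxycycline arrays lay below all others, by -0.82 ± 0.10 against PS medium (adjusted p = 0.000186, -0.78 without doxycycline replicate 3) and -0.92 ± 0.10 against untreated cells (adjusted p = 4.33e-05, -0.88 without doxycycline replicate 3). CACNA1A, the P/Q-type pore, read 432, 431 and 421 in untreated cells, 297, 223 and 289 under PS medium and 237, 180.4 and 188 under PS medium with doxycycline. Untreated arrays were highest, and PS and doxycycline arrays overlapped. It fell in PS medium (-0.64 ± 0.11, adjusted p = 0.0014) and was lower with doxycycline than in untreated cells (-1.03 ± 0.11, adjusted p = 5.62e-05, -0.98 without doxycycline replicate 3). Its call between doxycycline and PS medium (-0.39 ± 0.11, adjusted p = 0.0347, -0.34 without doxycycline replicate 3 with adjusted p = 0.103 and no longer called) was lost without untreated replicates 1, 2 or 3, or PS replicates 1 or 3, or doxycycline replicates 2 or 3 (log2 -0.39 to -0.33, adjusted p 0.0517 to 0.128), and on values as deposited and when the 2 groups were fitted alone. CACNA1D, an L-type pore, read 110.4, 127 and 118 in untreated cells, 88.2, 77.8 and 86.1 under PS medium and 78.5, 84.9 and 85.9 under PS medium with doxycycline, and fell in PS medium (-0.39 ± 0.09, adjusted p = 0.00854).

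The calcium auxiliary class, as set by symbol, held the largest rise with doxycycline. CACNG4, a gamma-family protein known as a trafficking partner of AMPA-type glutamate receptors, read 229, 247 and 239 in untreated cells, 284, 476 and 363 under PS medium and 1316, 2099.6 and 1577 under PS medium with doxycycline. All doxycycline arrays lay far above all others. With doxycycline it rose 4.32-fold against PS medium (2.11 ± 0.19, adjusted p = 2.85e-05, 2.14 without doxycycline replicate 3) and 6.56-fold against untreated cells (2.71 ± 0.19, adjusted p = 1.97e-06, 2.74 without doxycycline replicate 3). The smaller rise in PS medium (0.60 ± 0.19, adjusted p = 0.0315) was lost without untreated replicates 1, 2 or 3, or PS replicates 2 or 3 (log2 0.41 to 0.64, adjusted p 0.0582 to 0.104). CACNG5 and CACNG1 are the protein-coding genes next to CACNG4 on either side. CACNG5, a gamma-family gene of the same receptor partners, read 292, 295 and 294 in untreated cells, 399, 402 and 404 under PS medium and 257, 276 and 255 under PS medium with doxycycline. PS arrays were highest and within a narrow span, and doxycycline arrays were lowest. It rose in PS medium (0.44 ± 0.07, adjusted p = 0.000961) and fell with doxycycline (-0.59 ± 0.07, adjusted p = 0.000285, -0.56 without doxycycline replicate 3). CACNG1, the skeletal muscle gamma subunit, was called in no comparison.

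CACNG7, CACNG8 and CACNG6 are a further run of neighbours. CACNG7, of the receptor partner group, read 1485, 1372 and 1639 in untreated cells, 912, 727 and 988 under PS medium and 701, 689.7 and 767 under PS medium with doxycycline. The untreated arrays lay above all others, with falls of -0.80 ± 0.11 in PS medium (adjusted p = 0.00033) and -1.07 ± 0.11 with doxycycline against untreated cells (adjusted p = 4.65e-05, -1.12 without doxycycline replicate 3). CACNG6 read 443, 447 and 581 in untreated cells, 525, 442 and 584 under PS medium and 726, 719 and 869 under PS medium with doxycycline. Its doxycycline arrays lay above all others (0.55 ± 0.13 against PS medium, adjusted p = 0.0165, 0.45 without doxycycline replicate 3 with adjusted p = 0.055 and no longer called), a call lost without PS replicate 2, or doxycycline replicate 3 (log2 0.45 to 0.45, adjusted p 0.055 to 0.0575). CACNG8, the middle gene of the run, was called in no comparison. CACNG2, a founding member of the receptor partners and dim here, read 36.5, 33.8 and 33.8 in untreated cells, 53.7, 47.7 and 49.7 under PS medium and 54.2, 40.6 and 51.1 under PS medium with doxycycline, with rises over untreated cells of 0.42 ± 0.08 (adjusted p = 0.00288) and 0.38 ± 0.08 (adjusted p = 0.00517, 0.36 without doxycycline replicate 3).

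**Figure D3:**
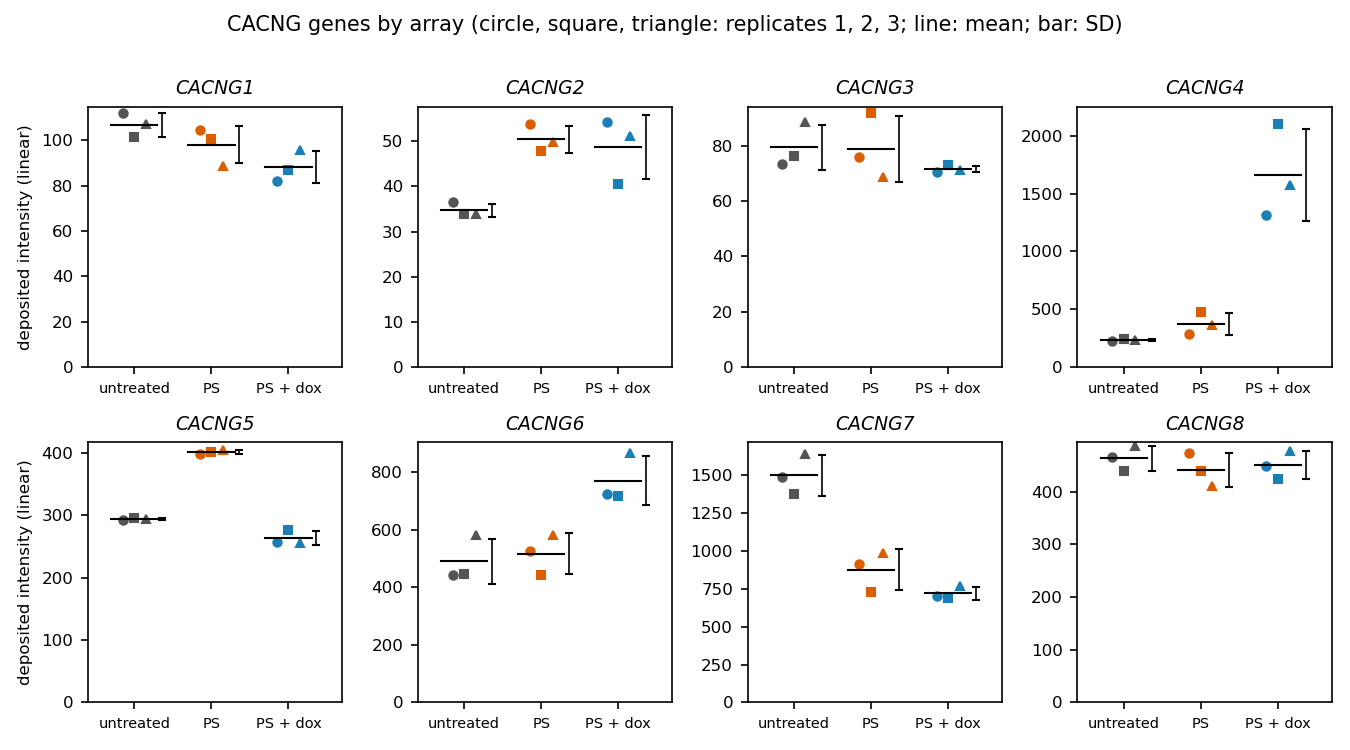
Deposited intensity (vertical axes, linear, each from 0) of the 8 CACNG genes on each of the 9 arrays, with the group mean as a line and its SD as a bar. CACNG4 and CACNG6 are highest with doxycycline, CACNG5 in PS medium and CACNG7 in untreated cells, while CACNG1, CACNG3 and CACNG8 were not called in any comparison.

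Beta and alpha-2-delta subunits bring the calcium pore to the membrane. CACNB2, a beta subunit of heart and neurons, read 188, 171 and 192 in untreated cells, 153, 146 and 174 under PS medium and 282, 235 and 333 under PS medium with doxycycline. The doxycycline arrays lay above all others. Its rise was 1.72-fold against PS medium (0.78 ± 0.11, adjusted p = 0.000688, 0.67 without doxycycline replicate 3) and 0.61 ± 0.11 against untreated cells (adjusted p = 0.00204, 0.49 without doxycycline replicate 3). CACNB3, another beta subunit, read 738, 818 and 864 in untreated cells, 984, 1024 and 1333 under PS medium and 1566, 1619.9 and 1319.6 under PS medium with doxycycline. Doxycycline replicate 3 overlapped PS replicate 3, and the untreated arrays were lowest. Against untreated cells the rise with doxycycline was 0.86 ± 0.12 (adjusted p = 0.000253, 0.95 without doxycycline replicate 3). The rise in PS medium (0.42 ± 0.12, adjusted p = 0.0196) was lost without untreated replicates 1 or 2, or PS replicate 3 (log2 0.29 to 0.42, adjusted p 0.0532 to 0.0866), and the rise with doxycycline over PS medium (0.45 ± 0.12, adjusted p = 0.022, 0.53 without doxycycline replicate 3) was lost without PS replicates 1 or 2, or doxycycline replicates 1 or 2 (log2 0.38 to 0.41, adjusted p 0.0719 to 0.0877). Both beta genes have a promoter window printed above.

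CACNA2D1, an alpha-2-delta subunit and the binding site of gabapentin, read 628, 679 and 582 in untreated cells, 727, 797 and 561 under PS medium and 965, 970.4 and 1016 under PS medium with doxycycline. All doxycycline arrays lay above all others, by 0.50 ± 0.12 against PS medium (adjusted p = 0.0151, 0.47 without doxycycline replicate 3) and 0.60 ± 0.12 against untreated cells (adjusted p = 0.00343, 0.57 without doxycycline replicate 3). CACNA2D3, a related subunit, read 305, 274 and 267 in untreated cells, 151, 162 and 157 under PS medium and 154, 154 and 153 under PS medium with doxycycline. The untreated arrays lay far above the others, with a fall of -0.76 ± 0.08 in PS medium (adjusted p = 5.34e-05) and a difference of -0.02 ± 0.08 between doxycycline and PS medium (adjusted p = 0.913, -0.00 without doxycycline replicate 3).

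**Figure D4:**
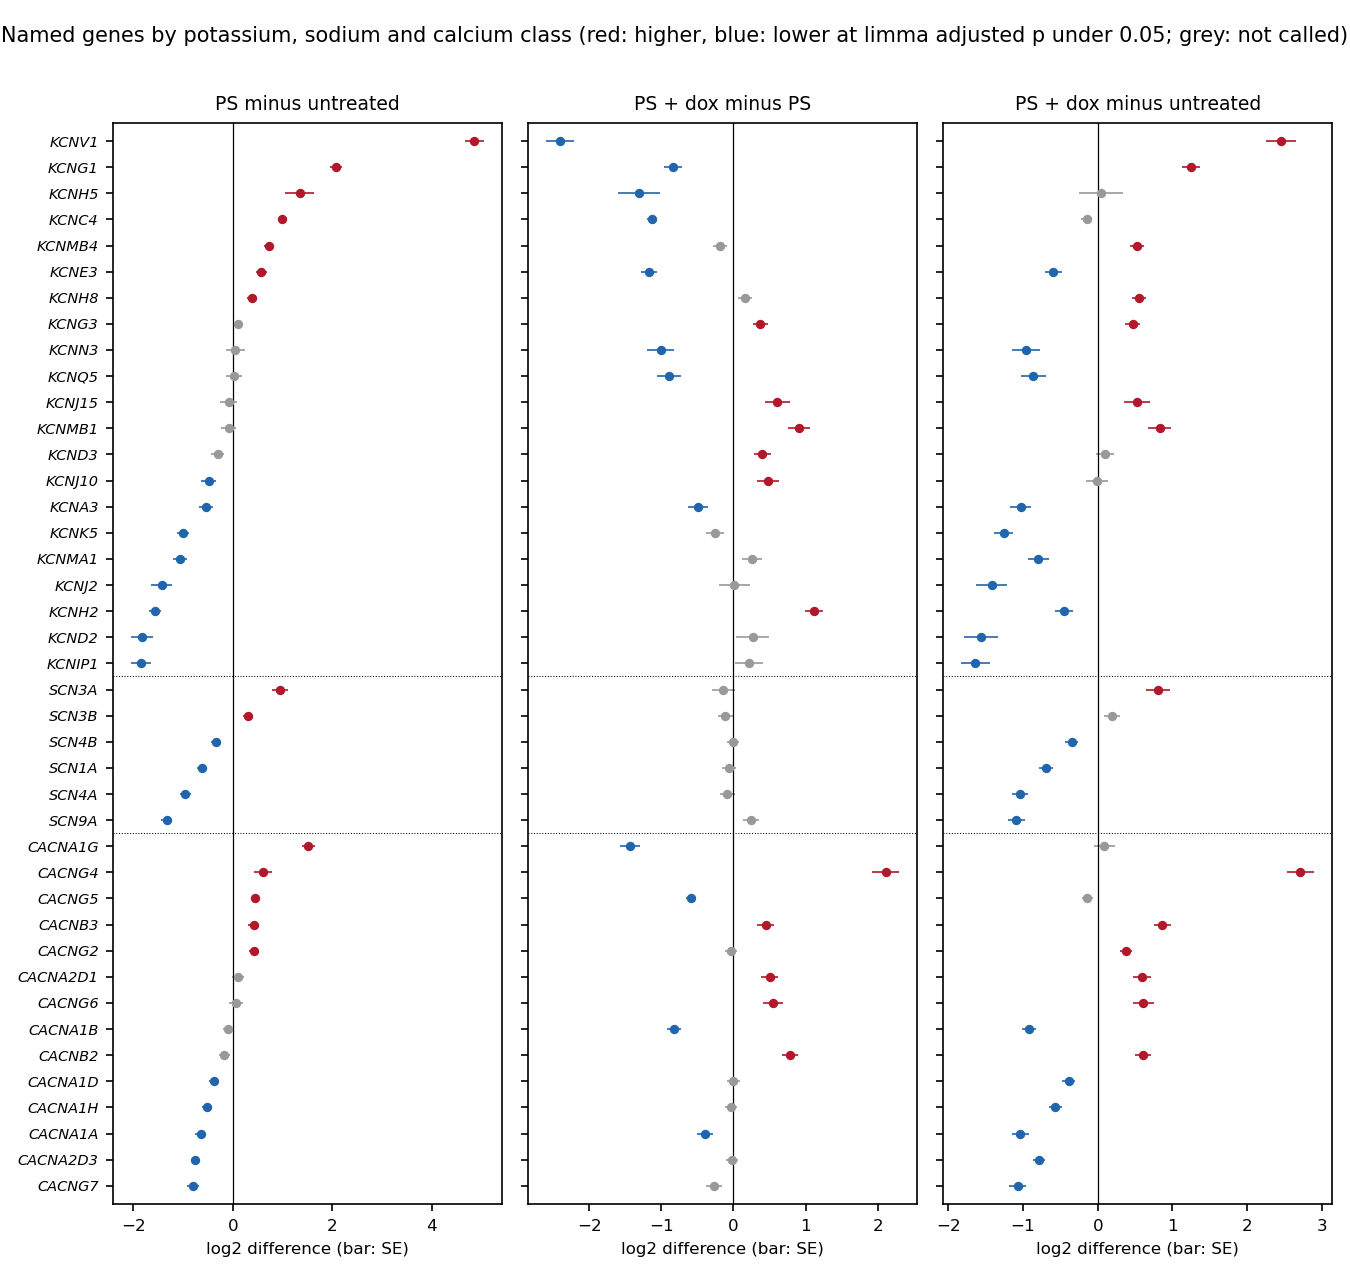
Log2 difference with its SE (horizontal axes) of the 41 channel genes named by rule, in rows by class and then by their difference in PS medium, in the 3 comparisons. Colour marks the limma call, and the scale differs between panels. In the sodium rows every point of the middle panel is grey, while KCNH2 and CACNG4 stand farthest right there.

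Called channel genes outside the 41 named ones were all potassium genes. In PS medium 3 of them rose by 0.30 to 0.45 and 12 fell, with differences of -0.74 to -0.23. With doxycycline against PS medium 3 rose by 0.35 to 0.37 and 5 fell (-0.58 to -0.23), and against untreated cells 2 rose by 0.34 to 0.41 and 12 fell (-0.92 to -0.35). Of the 4 genes with several probe sets (CACNA1C, KCNG1, KCNMB3 and SCN8A), SCN8A had sets that differed in their call. The probe set used for it gave -0.21 in PS medium (adjusted p = 0.327), and its other one -0.45 (adjusted p = 0.0195).

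Channel genes and channel partners outside the symbol rule, 77 measured of 82 listed, gave 17 rises and 22 falls in PS medium, 9 and 16 with doxycycline against PS medium, and 12 and 23 against untreated cells (9 and 16, then 13 and 21, without doxycycline replicate 3). With all arrays these are 50.6%, 32.5% and 45.5% called, beside 29.8%, 17.4% and 30.3% of all genes. The list was chosen with earlier results of these data known, so its higher shares may reflect that choice and were not tested. TRPA1, an irritant-gated cation channel, read 23.5, 33.1 and 28.2 in untreated cells, 694, 842 and 1587 under PS medium and 93.5, 174 and 227 under PS medium with doxycycline. Its PS arrays lay above all others and its untreated arrays below, and it rose by 4.50 ± 0.32 in PS medium and fell with doxycycline (-2.51 ± 0.32, -2.75 without doxycycline replicate 3). Against untreated cells it was higher with doxycycline by 1.99 ± 0.32 (1.76 without doxycycline replicate 3). ABCC9, the sulfonylurea receptor that pairs with KCNJ8 and KCNJ11 channels, read 25.7, 31.02 and 34.7 in untreated cells, 356, 351 and 383 under PS medium and 41.8, 44.3 and 33.97 under PS medium with doxycycline, a rise of 3.05 ± 0.11 and then a difference of -2.75 ± 0.11 (-2.65 without doxycycline replicate 3). FGF14, an intracellular partner of sodium channels, rose by 2.03 ± 0.19 in PS medium and was 1.73 ± 0.19 above untreated cells with doxycycline (1.84 without doxycycline replicate 3). Among the falls, ANO1, a calcium-activated chloride channel, read 404, 416 and 399.97 in untreated cells, 54.9, 37.6 and 58.7 under PS medium and 33.9, 37.6 and 46.8 under PS medium with doxycycline and fell in PS medium (-2.68 ± 0.13). DPP6, an auxiliary subunit of the A-type channels that KCND2 and KCNIP1 also form, read 345, 399 and 432 in untreated cells, 98.1, 133 and 69.3 under PS medium and 107, 105 and 115 under PS medium with doxycycline. It fell by 1.83 ± 0.17 on the log2 scale in PS medium and was lower than untreated cells with doxycycline (-1.68 ± 0.17, -1.69 without doxycycline replicate 3). ITPR2, a calcium release channel, fell in PS medium (-1.67 ± 0.16), and TRPC5, a receptor-operated cation channel, was lower with doxycycline than in untreated cells (-1.47 ± 0.11, -1.52 without doxycycline replicate 3). With doxycycline against PS medium the largest rises were in TRPM3, a heat-gated channel (1.24 ± 0.14, 1.23 without doxycycline replicate 3), DPP10, a further A-type auxiliary subunit (1.07 ± 0.12, 0.98 without doxycycline replicate 3), and UNC79. UNC79, of the sodium leak channel complex, read 112, 116 and 103 in untreated cells, 137, 112 and 149 under PS medium and 259.6, 199.8 and 408 under PS medium with doxycycline, with its highest array doxycycline replicate 3. It rose by 0.997 ± 0.20 against PS medium (0.73 without doxycycline replicate 3) and 1.26 ± 0.20 against untreated cells (0.996 without doxycycline replicate 3). CLCN4, a chloride-proton exchanger, was among the falls with doxycycline against PS medium (-1.33 ± 0.12, -1.27 without doxycycline replicate 3).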

How the data were processed

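Biotin-labelled DNA made from total RNA of 9 samples was hybridised to Affymetrix whole-transcript arrays. The deposited values hold a linear intensity for each probe set and array, made with Affymetrix Expression Console 1.1.1 and PLIER 2.0, per the submitters' processing notes. How background was corrected and arrays were normalized is not stated in these sources. The array annotation gave 1 symbol for 19460 of 33297 probe sets, several for 1754 and none for 12083. Symbols were updated by gene number for 19429 of them. The probe set with the highest mean stood for each gene, and 3 probe sets that hold a channel symbol among several were not used. Values were converted to log2(value + 16). Array medians spanned 0.103 on that scale, above the limit of 0.1, so arrays were quantile-normalized. The fit of all 9 arrays used limma 3.58.1 (lmFit and eBayes, variance trend, 6 residual degrees of freedom) in R 4.3.3, a mean for each group, and Benjamini-Hochberg adjustment over 18417 genes at 0.05. Version 1.17.8 of data.table read the files, and pandas 2.3.3 and matplotlib 3.10.9 under Python 3.11.15 handled promoters and plots. The procedure was tested on simulated data. The number of arrays limits the precision. Genes, lists and tests were chosen with earlier results of these data known.

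Named genes were those called with a log2 difference of at least 1 in size, then further called genes by size until a class had up to 6 rises and 6 falls, and 3 rises and 3 falls of the related channel genes. Arrays of the same replicate number deviated together at r = 0.245, 0.428 and 0.246 between doxycycline and PS medium, and 0.246, 0.309 and 0.297 between doxycycline and untreated cells. These values may reflect a pairing by number, which the labels do not state and which was not tested. The printed differences, SEs and adjusted p-values still come from the fit without that pairing, except where the replicate block is named. Between PS medium and untreated cells r was 0.0856, 0.397 and 0.271. The block pairs the arrays of all 3 groups by number. Alternatives were log offsets of 1 and 64, no normalization, median centring, no dim genes, every probe set, a fit of the 2 groups alone, no variance trend, the replicate number as a block, and leaving out each array.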

Additional observations from a re-analysis of the deposited data

How the results depend on the processing

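No named difference reversed under any alternative. Of 96 named differences, 85 stayed called in every alternative that tested them and 11 lost the call in 1 or more, as given beside each. Genes below the 25th percentile, such as KCNJ2, KCNIP1 and SCN9A, were absent from the fit without the dimmest genes and so were not tested there. Of the total counts, only the falls in PS medium moved by more than 1.5 times outside the single-array exclusions, to 18 without the dimmest genes, which tests fewer genes. Leaving out 1 array gave 12 to 16 rises and 25 to 30 falls in PS medium, 7 to 12 rises and 13 to 15 falls with doxycycline against PS medium, and 15 to 16 rises and 28 to 33 falls against untreated cells. Class counts were less stable: potassium rises with doxycycline against PS medium numbered 9 with all arrays and 3 to 7 with 1 left out, and 5 when those 2 groups were fitted alone. Calcium rises in PS medium numbered 3 to 5 in place of 5. Of the 2 sodium rises in PS medium, 1 remained on values as deposited and with median centring. The replicate block gave 47, 36 and 50 called channel genes in place of 46, 31 and 48, and every earlier call was among them (46, 31 and 48 shared). A log offset of 64 shrank the differences of dim genes such as SCN1A, SCN3A, SCN9A, CACNG2, KCNJ15, KCNE3, KCND3 and KCNA3 by more than 1.5 times and ended none of their calls. Median centring moved the split of calls over all genes in PS medium from 47.5% higher to 55.4%, and that of channel genes from 37% to 36.4%.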
